A study of Mus musculus with 28 samples.

Results

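The adrenergic receptors are the cell-surface receptors through which noradrenaline and adrenaline act, and 6 of their genes were followed here in the amygdala of female mice with and without access to alcohol: Adra1a, Adra1b, Adra1d, Adra2a, Adra2c and Adrb1. The genes were taken by their symbols from the GENCODE M21 annotation, in which 9 adrenergic receptor genes are listed. Of the 6 genes, 4 were listed for all 28 mice, among 49477 genes that both count tables share, whereas Adra2a and Adrb1 were listed for the 17 mice of the second batch alone, whose table holds 51073 genes. Adra2a and Adrb1 lie on chromosome 19, where 217 of 719 protein-coding genes were listed in the second table alone and 501 in both.

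The mice were adult female C57BL/6J animals, labelled C57BL6/J, housed singly and kept on the same 2-bottle schedule, with no transgene and no other treatment. The 10 Water mice had water in both tubes, the 9 Acute mice were given 20% ethanol beside water on a single occasion at the end of the schedule, and the 9 Chronic mice had free choice of 20% ethanol or water every other day throughout. Each group was split over 2 batches, with 4, 4 and 3 Water, Acute and Chronic mice in the first batch and 6, 5 and 6 in the second. RNA came from tissue punches aimed at the whole amygdala, the basolateral and central nuclei included, and between 20004380 and 22569562 estimated reads were assigned to genes in each mouse. Markers of amygdala neurons were present in every mouse, with 792 to 1573 CPM of Slc17a7 for glutamatergic neurons of the basolateral nuclei and 22.7 to 49.8 CPM of Prkcd for the central nucleus, and so were striatal markers such as Drd1 (26.6 to 75.5 CPM). The comparisons ask whether receptor transcripts differ after a single drinking session and after repeated sessions, and whether both modes of drinking differ from each other.

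Noradrenaline reaches the amygdala mainly along axons of brainstem neurons, chiefly of the locus coeruleus, and is released there during arousal and stress. Alpha-1 receptors (Adra1a, Adra1b, Adra1d) couple to Gq proteins, which activate phospholipase C and release calcium from internal stores. Alpha-2 receptors (Adra2a, Adra2c) couple to Gi and Go proteins, which lower cyclic AMP, open GIRK potassium channels and, on noradrenergic terminals, restrain further release. Beta receptors (Adrb1 among them) couple to Gs proteins, which raise cyclic AMP. In the amygdala this signalling is known for its part in emotional memory, and alpha-2 agonists and beta and alpha-1 blockers are known to alter alcohol drinking in animals.

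The 6 genes encode proteins that cross the membrane 7 times and carry the same aspartate-arginine-tyrosine triplet at the inner end of the third of these segments, where the receptor meets its G protein. The 57 coding bases around this triplet come from the GENCODE M21 transcripts, in the direction of the gene. They are printed because they show how far the counted transcripts differ around a triplet that all 6 share. Capitals mark the codons of the triplet.
Adra1a: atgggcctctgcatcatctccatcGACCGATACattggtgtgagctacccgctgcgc
Adra1b: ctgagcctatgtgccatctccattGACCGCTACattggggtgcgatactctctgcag
Adra1d: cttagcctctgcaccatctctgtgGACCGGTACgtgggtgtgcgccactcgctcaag
Adra2a: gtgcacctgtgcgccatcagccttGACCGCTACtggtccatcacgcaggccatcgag
Adra2c: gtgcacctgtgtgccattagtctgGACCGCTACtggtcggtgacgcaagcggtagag
Adrb1: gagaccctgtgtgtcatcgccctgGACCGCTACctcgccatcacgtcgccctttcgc

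In GRCm38 these stretches lie in coding exons at chr14:66637920-66637976 (plus strand) for Adra1a, chr11:43835633-43835689 (minus) for Adra1b, chr2:131561578-131561634 (minus) for Adra1d, chr19:54046623-54046679 (plus) for Adra2a, chr5:35280303-35280359 (plus) for Adra2c and chr19:56722810-56722866 (plus) for Adrb1. Adra2a and Adra2c were the most alike, with 46 of 57 bases identical (80.7%). The 3 alpha-1 genes shared 70.2% to 73.7% of these bases with each other, and the least alike were Adra1d and Adrb1 with 45.6%. No stretch of 31 bases was shared between the transcripts of any 2 of the 6 genes. With other genes, Adra2a and Adra2c shared none of their 31-base stretches, and the other members shared between 0.892% (Adra1b) and 6.31% (Adra1d). All of the 6.31% of Adra1d fell in Gm14285, an antisense gene that overlaps it on the opposite strand. The strand setting of the counting is not given in the sources used here, so reads of the overlap cannot be told apart; Gm14285 itself had 0 to 6 counts per mouse against 68 to 178 for Adra1d.

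The genes differ in structure. Adra2a, Adra2c and Adrb1 each have their coding sequence in 1 exon, and the genes lie at chr19:54044151-54048982, chr5:35278319-35281763 and chr19:56722199-56733113, respectively, all on the plus strand. The coding sequence of the alpha-1 genes spans 2 exons. Adra1a lies at chr14:66635251-66771168 on the plus strand, and Adra1b and Adra1d lie on the minus strand at chr11:43774606-43901210 and chr2:131545850-131562283.

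The receptor genes with the highest levels in the amygdala of Water mice were Adra2c, Adrb1 and Adra2a, and Adra1a had the lowest. Levels of different genes were compared as TMM-normalised CPM (counts scaled to a common library size) divided by the length of the gene's exons in kilobases, in the 6 Water mice of the second batch, where all 6 genes were listed. Adra2c stood at 9.40 ± 1.08 CPM per kilobase (SD, n = 6), Adrb1 at 8.0 ± 0.676 and Adra2a at 5.96 ± 0.810. The alpha-1 genes followed, with 3.45 ± 0.422 for Adra1d, 2.40 ± 0.536 for Adra1b and 0.861 ± 0.126 for Adra1a. With the longest coding transcript in place of all exons, Adra1a stood at 1.75 ± 0.257, still below Adra1b in 6 of 6 mice, and its log2 distance to Adra1b was 0.46 in place of 1.46. Among 14514 protein-coding genes that passed the same filter, Adra2c lay above 68.6% and Adra1a, by exon length, above 16.7%. Summed per mouse, the alpha-2 genes held 51.1% ± 1.12 of the level of the 6 genes in Water mice, Adrb1 held 26.6% ± 1.17 and the alpha-1 genes 22.3% ± 1.53. These shares rest on the length of all exons. They were not computed with the longest coding transcript, by which Adrb1 stood at 9.17 ± 0.775 and Adra1a at 1.75 ± 0.257, while both alpha-2 genes were unchanged.

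**Figure D1:**
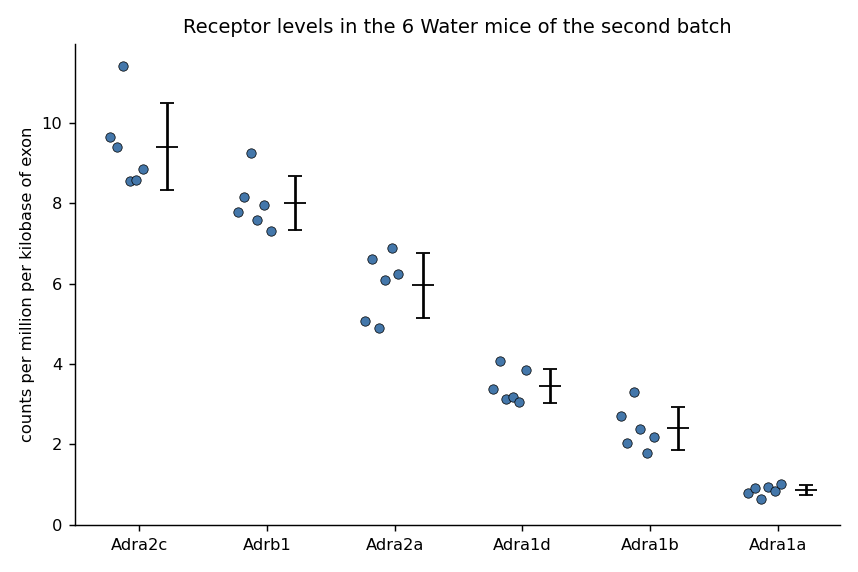
Level of each receptor gene (vertical axis, TMM-normalised CPM per kilobase of exon) in the 6 Water mice of the second batch; points are mice, bars the mean and SD. Adra2c lies highest at 9.40 and Adra1a lowest at 0.861.

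This order held mouse by mouse with a single exception. Adra2c was above Adrb1, Adrb1 above Adra2a, Adra2a above Adra1d and Adra1b above Adra1a in 6 of 6 Water mice, while Adra1d was above Adra1b in 5 of 6. The gap between Adra1d and Adra1b was 0.54 ± 0.39 on the log2 scale (SD), from -0.073 to 0.998, so these neighbours overlapped. The lead of Adra2c over Adrb1 was small, at 0.23 ± 0.082. Scaled to the longest coding transcript in place of all exons, a choice made after the data were seen, that lead was 0.033 and was present in 4 of 6 mice. In the first batch, Adra2c was again above Adra1d (4 of 4 Water mice) and Adra1b above Adra1a (4 of 4), and Adra1d was above Adra1b in 3 of 4.

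The subfamily shares were close to these in both drinking groups. Alpha-2 genes held 52.4% ± 2.49 of the summed level in the 5 Acute mice and 51.8% ± 2.61 in the 6 Chronic mice of the second batch. Adrb1 held 26.0% ± 0.743 and 26.4% ± 1.92, and the alpha-1 genes 21.6% ± 2.24 and 21.8% ± 1.37. The ranges of the 3 groups overlapped for every subfamily.

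No receptor gene was called different between any of the groups. The p-values are those of edgeR (quasi-likelihood test, Benjamini-Hochberg adjustment over all genes tested), with an adjusted p under 0.05 as the threshold, batch as a covariate for the 4 genes of all 28 mice and on the second batch alone for Adra2a and Adrb1. In Acute against Water, 0 of 6 members passed, against a background of 0.0% of 16266 genes in both batches and 0.0% of 16435 in the second batch alone. In Chronic against Water, 0 of 6 passed, against 0.0184% and 0.0243% of these genes, and in Chronic against Acute 0 of 6 against 0.0% and 0.0%. At an unadjusted p under 0.05, 1 of 6 members (Adra2a) was higher in Acute than in Water, and the same gene was higher in Chronic than in Water, where 2.43% and 6.52% of all genes of the second table were higher at that level. DESeq2, run as an alternative, called 0 of the 6 genes as well, where over all genes it called 0.0492% in Acute against Water, 0.221% in Chronic against Water and 0.0% in Chronic against Acute in both batches, and 0.0%, 1.06% and 0.0183% in the second batch alone. The groups of 0 of the 6 members were free of overlap in any comparison. Over all genes in both batches, groups were free of overlap for 0.0184% in Acute against Water, 0.00615% in Chronic against Water and 0.0% in Chronic against Acute, and in the second batch alone for 0.444%, 0.791% and 0.402%.

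**Figure D2:**
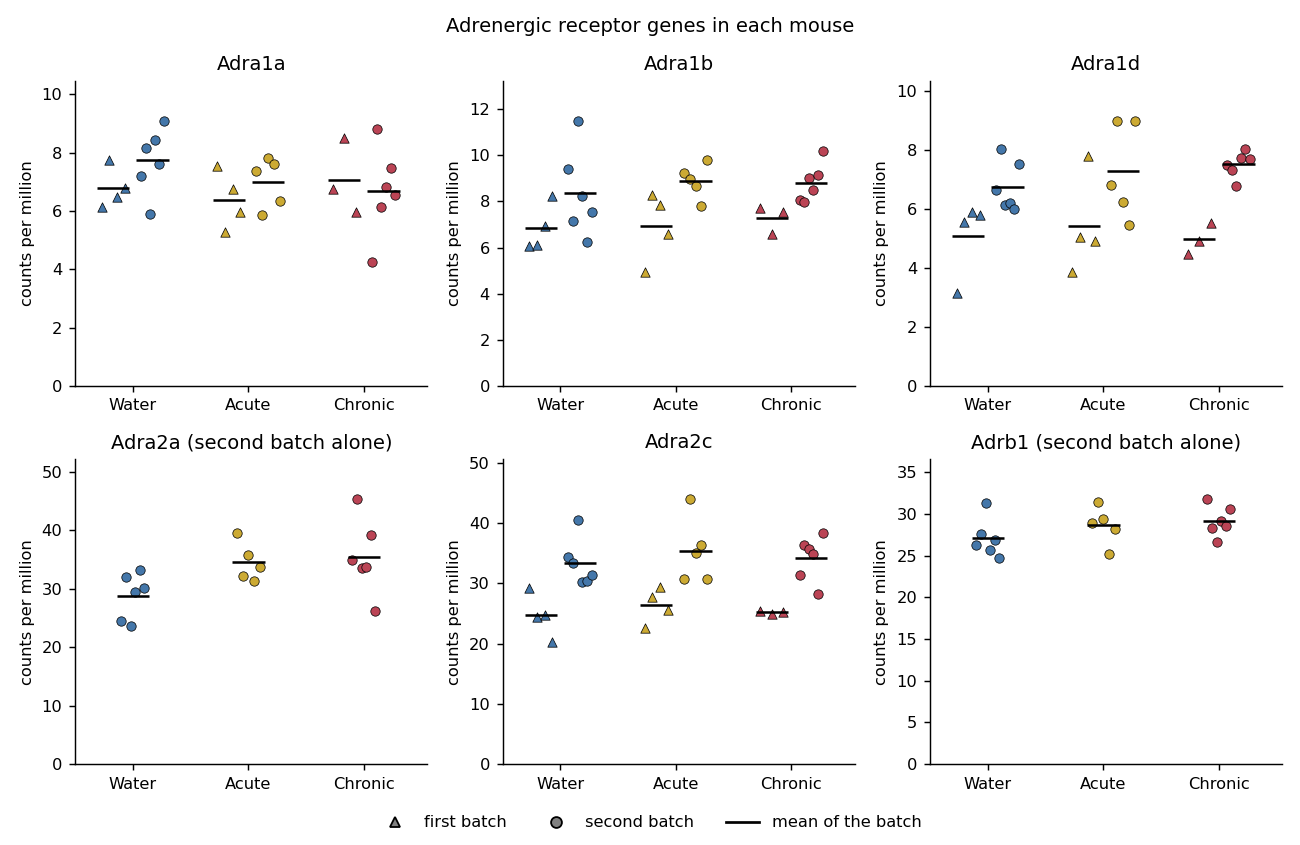
CPM of the 6 receptor genes (vertical axes) in each mouse of the Water, Acute and Chronic groups; triangles are mice of the first batch, circles of the second, and lines the mean of each batch. All groups overlap for every gene, and Adra2a has the widest gap between Water (28.8) and both drinking groups (34.5 and 35.5).

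Adra2a encodes the alpha-2A receptor, the main inhibitory autoreceptor of noradrenergic neurons and also a receptor of many other neurons. Water mice of the second batch ranged from 23.7 to 33.2 CPM with a median of 29.7. The 5 Acute mice had 39.5, 32.2, 35.8, 31.2 and 33.7 CPM, and the 6 Chronic mice ranged from 26.1 to 45.3 with a median of 34.3. All 5 Acute mice were above the Water mean and 3 were above the highest Water mouse. Among Chronic mice, 5 of 6 were above the highest Water mouse and 1 was below the Water mean, so both drinking groups overlapped the Water group.

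The Adra2a means were 28.8 ± 3.91 CPM for Water, 34.5 ± 3.27 for Acute and 35.5 ± 6.40 for Chronic mice (SD). Acute mice were 1.20-fold above Water mice (95% confidence interval 1.02 to 1.41), with a log2 fold change of 0.26 ± 0.11 (SE), an unadjusted p of 0.0320 and an edgeR adjusted p of 0.908. The exact 2-sided permutation test of this single gene gave p = 0.0303, where the smallest p that its 462 regroupings allow is 0.00216. The unadjusted p of edgeR was above 0.05 without Acute mouse 1 (0.0931) or 3 (0.0605), and without Water mouse 1 (0.0720) or 3 (0.0754). Chronic mice were 1.23-fold above Water mice (1.05 to 1.44), with a log2 fold change of 0.30 ± 0.11, an unadjusted p of 0.0112 and an edgeR adjusted p of 0.250. The exact permutation test gave p = 0.0628 for that difference. Neither difference passed the adjusted threshold, and the one low Chronic mouse (26.1 CPM) and the one high Chronic mouse (45.3 CPM) set its size: the log2 fold change was 0.38 without the former and 0.22 without the latter (edgeR adjusted p = 0.144 and 0.366). Chronic and Acute mice differed by 0.041 ± 0.11 on the log2 scale, with an interval from -0.19 to 0.27. Both comparisons with Water use the same 6 Water mice.

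Markers of neighbouring tissue moved with Adra2a. The striatum list (Drd1, Drd2, Adora2a, Ppp1r1b, Rgs9, Pde10a and Tac1 among them), of which 8 of 8 genes were detected in every mouse, summed to 499.6 to 1256 CPM in Water mice of the second batch (median 1035). The sum was 533 to 1257 CPM in Acute mice (median 938) and 485 to 1064 in Chronic mice (median 627). Over the 17 mice, Adra2a fell as the striatum score rose, with a Pearson r of -0.712 (permutation p = 0.00110, adjusted 0.0183) and a Spearman rho of -0.701 (p = 0.00248, adjusted 0.0307). Without the 2 mice of most extreme score r was -0.682, and with the group means removed it was -0.703. The part of the tissue mixture in the Adra2a difference was not tested. In tissue punches, fewer cells of a type and less RNA per cell cannot be told apart.

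Adra2c encodes the alpha-2C receptor, the other inhibitory alpha-2 receptor of the forebrain and the best known of them in striatal neurons. Over both batches, Water mice ranged from 20.3 to 40.6 CPM (median 30.3), Acute mice from 22.5 to 44.0 (median 30.7) and Chronic mice from 24.9 to 38.4 (median 31.4). The 3 groups overlapped almost throughout. The log2 fold change was 0.087 ± 0.073 (SE) in Acute against Water, with an interval from -0.061 to 0.24 (edgeR adjusted p = 0.719; exact permutation p = 0.320). In Chronic against Water it was 0.033 ± 0.073, from -0.12 to 0.18 (edgeR adjusted p = 0.912; exact permutation p = 0.619). Both intervals leave out a change of the size estimated for Adra2a in Chronic mice. The Acute estimate was 0.036 without the highest Acute mouse (44.0 CPM), and without the highest Water mouse (40.6 CPM) the estimates were 0.12 in Acute and 0.071 in Chronic mice. Adra2c rose with the striatum score over 28 mice, with r = 0.552 (permutation p = 0.00271, adjusted 0.0298) and rho = 0.519 (adjusted p = 0.0538). The r was 0.636 within the first batch, 0.507 within the second, 0.509 without the 2 mice of most extreme score and 0.580 with the group means removed.

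Adrb1 encodes the beta-1 receptor, the main beta receptor of forebrain neurons. Water mice of the second batch ranged from 24.7 to 31.3 CPM with a median of 26.6, the Acute mice had 28.9, 31.4, 29.4, 25.2 and 28.2 CPM, and the Chronic mice ranged from 26.6 to 31.8 with a median of 28.9. Of these, 4 of 5 Acute and 5 of 6 Chronic mice were above the Water mean, and 1 mouse of each drinking group was above the highest Water mouse. The log2 fold change was 0.080 ± 0.064 in Acute against Water, with an interval from -0.054 to 0.21 (edgeR adjusted p = 0.915; exact permutation p = 0.273). In Chronic against Water it was 0.11 ± 0.061, from -0.020 to 0.24 (edgeR adjusted p = 0.455; exact permutation p = 0.0974). Single mice set the size of the Acute estimate, which was 0.13 without the highest Water mouse (31.3 CPM; unadjusted p = 0.0452, edgeR adjusted p = 0.744) and 0.046 without the highest Acute mouse (31.4 CPM). Without that Water mouse the Chronic estimate was 0.16 (unadjusted p = 0.0126, edgeR adjusted p = 0.205).

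**Figure D3:**
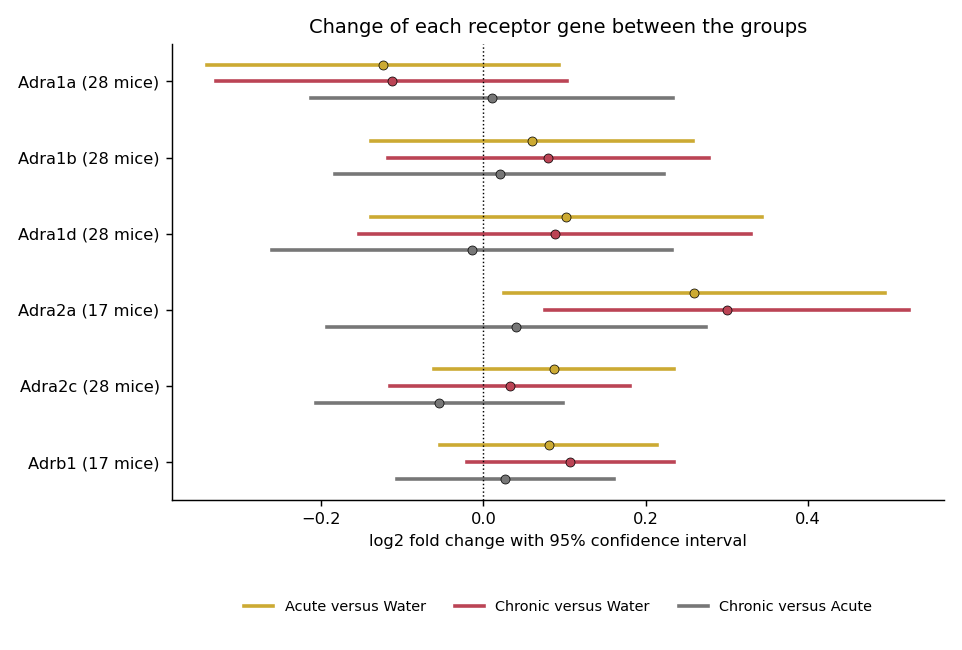
Log2 fold change of each receptor gene (horizontal axis) in the 3 comparisons, with the estimate of edgeR (point) and its 95% confidence interval (line). The intervals of Adra2a against Water lie above 0 before adjustment (0.025 to 0.50 and 0.076 to 0.53), and all others span 0.

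The 3 alpha-1 genes had no difference beyond the spread between mice. Adra1a, the alpha-1A receptor, ranged from 5.88 to 9.09 CPM in Water mice (median 7.41), from 5.28 to 7.81 in Acute mice (median 6.77) and from 4.23 to 8.81 in Chronic mice (median 6.76). It was the only member with estimates below 0 against Water in both drinking groups: -0.12 ± 0.11 in Acute mice, with an interval from -0.34 to 0.093 (edgeR adjusted p = 0.726; exact permutation p = 0.186), and -0.11 ± 0.11 in Chronic mice, from -0.33 to 0.10 (edgeR adjusted p = 0.743; exact permutation p = 0.315). By batch, the Chronic estimate was 0.059 ± 0.15 in the first and -0.21 ± 0.14 in the second, a difference of -0.27 ± 0.22 (edgeR adjusted p = 0.873 for the interaction).

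Adra1b, the alpha-1B receptor, ranged from 6.05 to 11.5 CPM in Water mice (median 7.35), from 4.94 to 9.80 in Acute mice (median 8.28) and from 6.57 to 10.2 in Chronic mice (median 8.07). Its log2 fold change was 0.060 ± 0.097 in Acute against Water, from -0.14 to 0.26 (edgeR adjusted p = 0.881; exact permutation p = 0.566). In Chronic against Water it was 0.080 ± 0.097, from -0.12 to 0.28 (edgeR adjusted p = 0.815; exact permutation p = 0.327). Without the highest Water mouse (11.5 CPM) the estimates were 0.12 and 0.15. Adra1d, the alpha-1D receptor, ranged from 3.14 to 8.02 CPM in Water mice (median 6.06), from 3.86 to 8.99 in Acute mice (median 6.24) and from 4.46 to 8.03 in Chronic mice (median 7.33). Its log2 fold changes against Water were 0.10 ± 0.12 in Acute mice, from -0.14 to 0.34, and 0.088 ± 0.12 in Chronic mice, from -0.15 to 0.33 (edgeR adjusted p = 0.817 and 0.840; exact permutation p = 0.570 and 0.371).

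Chronic and Acute mice did not differ in any of the 6 genes beyond the spread between mice. The estimates ranged from -0.054 ± 0.074 for Adra2c to 0.041 ± 0.11 for Adra2a on the log2 scale, with edgeR adjusted p of 0.999 or above and exact permutation p between 0.546 (Adra2c) and 0.988 (Adra1a). The widest interval was that of Adra1d, from -0.26 to 0.23, and the narrowest that of Adrb1, from -0.11 to 0.16.

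The 4 genes measured in both batches are given here by batch, with no test. In Water mice, the second batch exceeded the first by 0.44 on the log2 CPM scale for Adra2c, 0.43 for Adra1d, 0.27 for Adra1b and 0.18 for Adra1a, where the median absolute difference of all genes was 0.13. The absolute difference was smaller than that of Adra2c in 89.8% of all genes, of Adra1d in 89.6%, of Adra1b in 77.8% and of Adra1a in 61.9%. For Adra2c, all 6 Water mice of the second batch (4.92 to 5.35 log2 CPM) were above all 4 of the first (4.35 to 4.87). The same held for Adra1d (2.60 to 3.02 against 1.70 to 2.58). The share of all genes whose Water mice separate by batch in this way was not counted. The ranges of Adra1a and Adra1b overlapped between the batches, and among Chronic mice Adra1a averaged 7.07 CPM in the first batch against 6.67 CPM in the other. Differences between the mice, libraries and tables of the batches cannot be told apart.

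Several receptor genes moved with marker lists of the tissue, each relation being taken over mice with batch means removed. Of 99 relations computed, 84 between a member and a marker list and 15 between members, 11 had an adjusted permutation p of r under 0.05. Adra1b followed the pallial excitatory list (Slc17a7, Neurod2, Neurod6, Tbr1, Rspo2 and Emx1), the markers of the glutamatergic neurons that fill the basolateral nuclei and cortex. Its r was 0.756 over 28 mice (adjusted p = 0.00198) and its rho 0.788 (adjusted p = 0.00099), with r = 0.849 within the first batch, 0.684 within the second and 0.708 without the 2 mice of most extreme score. Adrb1 followed the same list over 17 mice, with r = 0.709 (permutation p = 0.00111, adjusted 0.0183), rho = 0.640 (adjusted p = 0.0538) and r = 0.617 without the 2 mice of most extreme score.

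**Figure D4:**
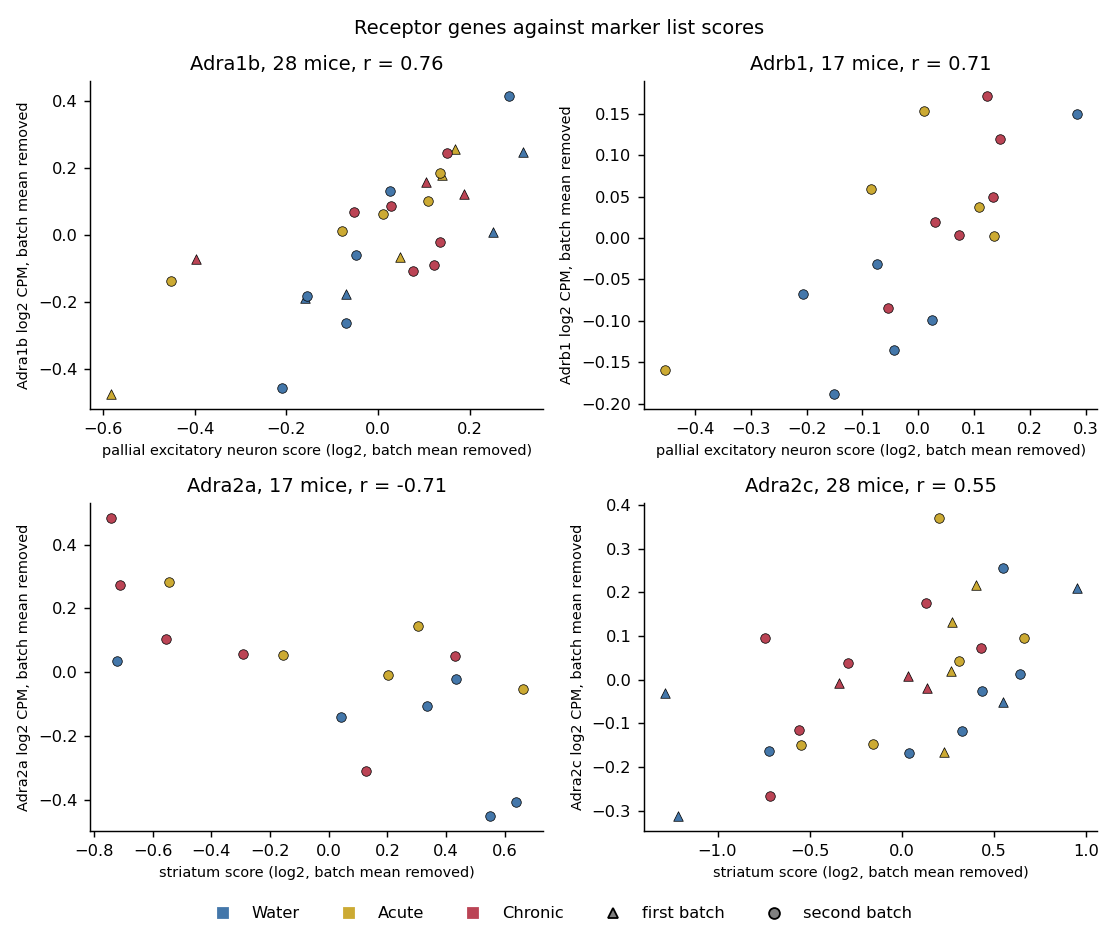
Log2 CPM of 4 receptor genes (vertical axes) against the mean log2 CPM of a marker list (horizontal axes), batch means removed, with colour for the group and symbol for the batch of each mouse. Adra1b (r = 0.76) and Adrb1 (r = 0.71) rise with the pallial excitatory list, Adra2c rises (r = 0.55) and Adra2a falls (r = -0.71) with the striatum list.

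Adra1a rose with the oligodendrocyte precursor list (Pdgfra, Cspg4, Gpr17, C1ql1, Neu4 and Lhfpl3), with r = 0.651 (permutation p = 5.00e-05, adjusted 0.00247), rho = 0.739 (adjusted p = 0.00148), r = 0.486 and 0.802 within the batches and r = 0.735 without the 2 mice of most extreme score. Adra1b fell with the same list (r = -0.557, adjusted p = 0.0307; r = -0.572 and -0.549 within the batches). Adra1a and Adrb1 went in opposite directions over the 17 mice of the second batch, with r = -0.689 (permutation p = 0.00137, adjusted 0.0194) and -0.535 without the 2 mice of most extreme Adrb1 level. No other pair of members passed the adjusted threshold of r. By rho, Adra1a and Adrb1 did not pass (rho = -0.630, adjusted permutation p = 0.0538). Adra1a and Adra1b passed by rho alone (rho = -0.532, adjusted permutation p = 0.0393), as did Adra1a with the pallial excitatory list (rho = -0.580, adjusted permutation p = 0.0218).

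The remaining 4 relations that passed by r were those of Adra1d with the neuron list, and of Adra1b with the neuron, immediate early gene and thalamus lists. For Adra1d with neurons, r was 0.681 (adjusted p = 0.00470), 0.812 and 0.419 within the batches and 0.535 without the 2 mice of most extreme score. For Adra1b with neurons, r was 0.681 (adjusted p = 0.00297), 0.770 and 0.629 within the batches and 0.582 without those mice. For Adra1b with immediate early genes, r was 0.577 (adjusted p = 0.0250), 0.821 and 0.405 within the batches and 0.570 without those mice. For Adra1b with the thalamus, r was -0.540 (adjusted p = 0.0313), -0.721 and -0.355 within the batches and -0.478 without those mice. The choroid plexus list summed in the second batch to between 12.1 and 2080 CPM, and no receptor gene passed the threshold with it. These permutation tests shuffled mice within batches, and all relations share the libraries of the same mice.

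The genes whose levels went most closely with each member are given as a description, chosen as the 3 highest r among all genes tested. With Adra1a over 28 mice they were Hipk2 (a nuclear kinase; r = 0.870), Plcxd3 (0.868) and Klf12 (a transcriptional repressor; 0.857). With Adra1b they were Nlk (a kinase; 0.823), Nabp1 (0.811) and Vxn (0.802), and with Adra1d Tmem8b (0.807), Ap2a2 (an endocytic adaptor; 0.793) and App (the amyloid precursor protein; 0.775). Adra2c had the weakest partners, Tesc (a calcium-binding protein; 0.758), Shf (0.754) and Gdf10 (a growth factor; 0.752). Over the 17 mice of the second batch, Adra2a went with Slc24a3 (a sodium, calcium and potassium exchanger; 0.914), Slc5a5 (the sodium and iodide symporter; 0.911) and Mab21l1 (0.887), and Adrb1 with Coro1a (an actin-binding protein; 0.912), Gpr180 (0.897) and Wsb2 (0.867). No gene was among the 3 of more than 1 member.

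Transcripts that mark the cell bodies of noradrenergic neurons, which lie in the brainstem, were at or near 0 in the tissue. Phox2a, a transcription factor of noradrenergic neurons, had 0 counts in 23 of 28 mice and at most 1 in the others. The noradrenaline transporter Slc6a2 had at most 6 counts, and Dbh, the enzyme that makes noradrenaline from dopamine, had 2 to 10. Th, which acts in all catecholamine neurons, had 8 to 89 counts.

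Adra2b and Adrb3, receptor genes outside the list, were low. Median levels were 0.844 CPM for Adra2b and 1.44 for Adrb3, and neither passed the test in any comparison, with unadjusted p of 0.193 or above. In Acute against Water, Adra2b had a log2 fold change of 0.21 ± 0.26 (SE) and Adrb3 of -0.068 ± 0.19. In Chronic against Water, Adra2b had -0.15 ± 0.26 and Adrb3 0.16 ± 0.19, and in Chronic against Acute Adra2b had -0.36 ± 0.27 and Adrb3 0.23 ± 0.20.

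Around the receptors, 61 genes of noradrenaline handling and receptor coupling were listed, other receptors among them, of which 58 passed the filter, 6 of them in the second batch alone. None was called in any comparison, against 0.0%, 0.0184% and 0.0% of all genes in both batches and 0.0%, 0.0243% and 0.0% in the second batch alone. At an unadjusted p under 0.05, 7 were higher and 1 lower in Acute than in Water, 7 higher and 2 lower in Chronic than in Water, and 1 higher and 4 lower in Chronic than in Acute, and none of the 6 genes of the second batch alone was among these. Over all genes in both batches, 5.07% were higher and 4.45% lower at that level in Acute against Water, 4.81% and 5.65% in Chronic against Water, and 1.95% and 2.5% in Chronic against Acute.

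**Figure D5:**
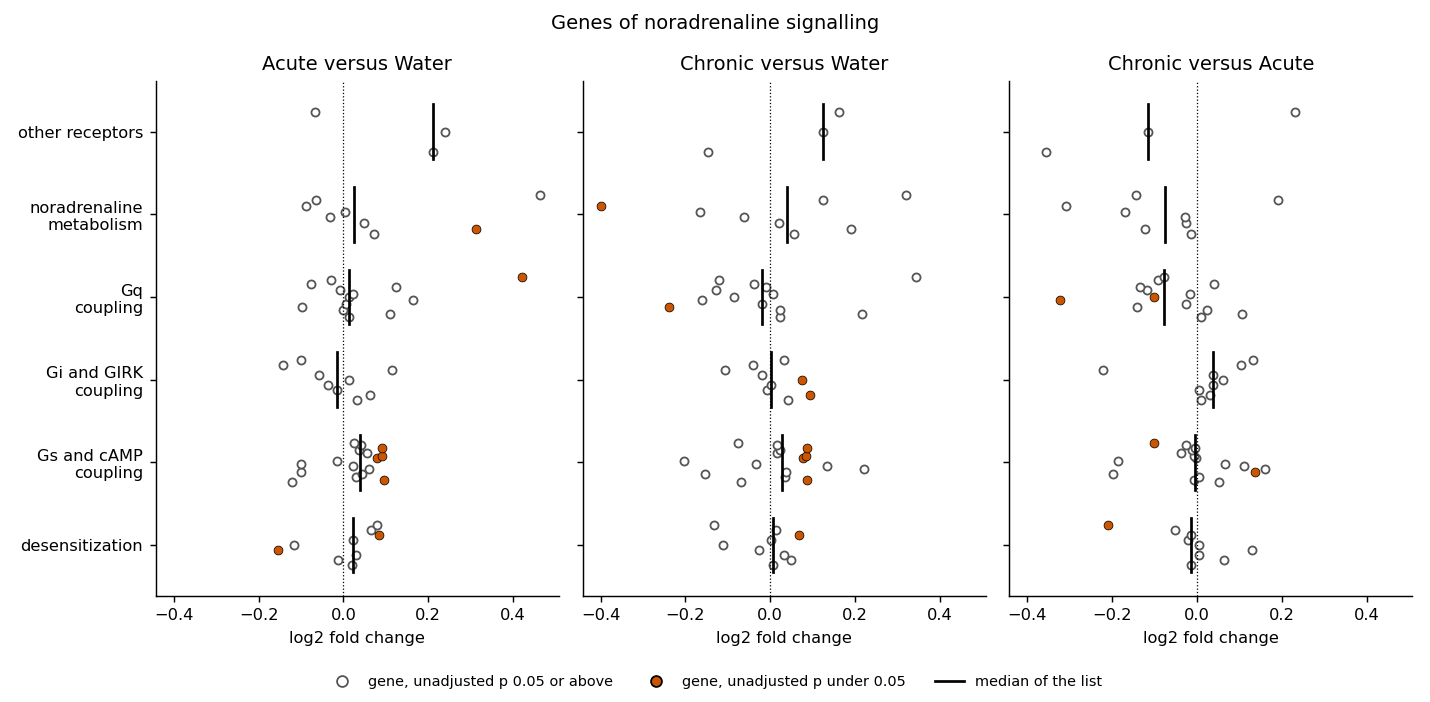
Log2 fold change (horizontal axes) of 58 genes of noradrenaline signalling in 6 lists (rows) and 3 comparisons (panels); filled points have an unadjusted p under 0.05, vertical lines are list medians. No gene passed the adjusted threshold, and the 4 filled genes of the Gs and cAMP list lie between 0.076 and 0.096 in both comparisons with Water.

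The list of Gs and cyclic AMP signalling, to which Adrb1 couples, has 16 genes and was chosen with earlier results of these data known. In each comparison with Water, 4 of 16 had an unadjusted edgeR p under 0.05. These were Gnas, Adcy2, Prkaca and Prkar1b in both, all higher in the drinking mice. Over all genes in both batches, 5.07% were higher at that level in Acute and 4.81% in Chronic than in Water. Gnas encodes the stimulatory G protein subunit, Adcy2 an adenylyl cyclase, and Prkaca and Prkar1b a catalytic and a regulatory subunit of protein kinase A. In Acute against Water their log2 fold changes were 0.078 ± 0.037, 0.096 ± 0.043, 0.090 ± 0.034 and 0.092 ± 0.038 (edgeR adjusted p from 0.462 to 0.502). In Chronic against Water they were 0.076 ± 0.037, 0.088 ± 0.043, 0.084 ± 0.034 and 0.087 ± 0.038 (edgeR adjusted p from 0.367 to 0.476). The list's median was 0.038 and 0.029, with 12 and 11 of 16 genes above 0, where the medians of all genes were 0.0011 and 0.0022. The same Water mice stand in both comparisons. In Chronic against Acute, Adcy6 (another cyclase) had 0.14 ± 0.054 and Prkar2b (a kinase A regulatory subunit) -0.10 ± 0.042, both with an edgeR adjusted p of 0.998.

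Among the partners of alpha-2 receptors, Gnai2 and Gnaz, both subunits of the inhibitory G protein family, had log2 fold changes of 0.093 ± 0.033 and 0.076 ± 0.036 in Chronic against Water (edgeR adjusted p = 0.290 and 0.457). In Acute against Water the smallest p were those of Gnai2, at 0.062 ± 0.033, and of the GIRK channel gene Kcnj6, at -0.14 ± 0.084. In Chronic against Acute they were those of the GIRK channel gene Kcnj9, at 0.13 ± 0.069, and of Gnaz, at 0.062 ± 0.037. The list's median log2 fold change was -0.014, 0.0019 and 0.038 in Acute against Water, Chronic against Water and Chronic against Acute.

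Among the partners of alpha-1 receptors, Itpr1, a calcium release channel, had a log2 fold change of -0.24 ± 0.10 in Chronic against Water (edgeR adjusted p = 0.410). In Chronic against Acute, the related channel Itpr3 had -0.32 ± 0.095 and the phospholipase Plcb1 -0.10 ± 0.047 (edgeR adjusted p = 0.998 for both). Of the 13 genes of this list, 9 were above 0 in Acute against Water, 5 in Chronic against Water and 4 in Chronic against Acute.

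Among the genes that desensitize receptors, the kinase gene Grk6 had 0.083 ± 0.030 in Acute and 0.069 ± 0.030 in Chronic against Water (edgeR adjusted p = 0.452 and 0.421), and the kinase gene Grk3 -0.15 ± 0.068 in Acute against Water (edgeR adjusted p = 0.497). Rgs4, a brake on G protein signalling, had -0.21 ± 0.075 in Chronic against Acute (edgeR adjusted p = 0.998). The medians of the list's 9 genes were 0.024, 0.0069 and -0.014.

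Of the genes that make, carry or break down noradrenaline, 8 of 11 passed the filter. Ddc, the decarboxylase on the way to dopamine, stood at 16.8 ± 3.29 CPM in Acute and 13.5 ± 2.40 in Water mice (SD), a log2 fold change of 0.31 ± 0.12 (SE; edgeR adjusted p = 0.462). Slc22a3, a low-affinity carrier of monoamines, stood at 1.90 ± 0.409 CPM in Chronic and 2.50 ± 0.759 in Water mice, with -0.40 ± 0.17 (edgeR adjusted p = 0.412). In Chronic against Acute the smallest p were those of Slc22a3, at -0.31 ± 0.18, and of the vesicular carrier Slc18a2, at -0.17 ± 0.11, in the second batch alone. The medians of this list were 0.026, 0.039 and -0.075.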

How the data were processed

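RNA-seq of the amygdala was analysed from 2 tables of estimated counts per gene, deposited by the authors in whole numbers and not adjusted for batch. Per the submitters' processing notes, reads were checked with FastQC 0.11.8 and quantified with Salmon 0.14.1 on GRCm38. The authors summarized transcripts per gene with tximport and GENCODE M21. Library strandedness is not given in the sources used here. Totals were 20393352 to 22569562 in the first batch and 20004380 to 20890964 in the second.

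Counts were normalised by TMM, and genes that averaged 10 counts or more were tested with edgeR 4.0.16 (quasi-likelihood, 2-sided, Benjamini-Hochberg adjustment), with batch as a covariate, on all 28 mice. Adra2a and Adrb1, listed here for the second batch alone, were tested with all genes of the second table on its 17 mice, a departure from the joint design. Single members were also tested by exact permutation of mice within batches on log2 CPM (prior count 2). Marker scores average the log2 CPM of a list after subtraction of each batch mean, with 100000 permutations. Named pathway genes are those with an unadjusted p under 0.05, otherwise the 2 smallest p of a list. Members and lists were chosen with earlier results of these data known. The values of some single genes of these lists are not reported here. Alternatives used RLE and upper quartile normalisation, other filters, DESeq2 1.42.0, limma 3.58.1, sva 3.50.0, the batches apart, a replicate block, the 2 groups alone, and each mouse left out. Scripts were tested on simulated data. Mice are labelled as separate animals. Intervals of 95% are confidence intervals of the fold change between groups and are not ranges of single mice.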

Additional observations from a re-analysis of the deposited data

Results flagged for a closer look

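Of 18 combinations of a receptor gene and a group, 2 held a mouse that stood apart from the rest of its group by Dixon's test, where chance marks about 1 in 20. Adra1a in Chronic mouse 1 of the second batch was the lowest of 9, at 4.23 CPM, with a gap to the next mouse of 0.496 of the group's range after removal of batch means. Without it the log2 fold change of Adra1a in Chronic against Water was -0.045 in place of -0.11 (edgeR adjusted p = 0.920). Adra1d in Water mouse 40 of the first batch was the lowest of 10, at 3.14 CPM, with a gap of 0.478 of the range. Without it the log2 fold changes of Adra1d against Water were 0.040 in Acute and 0.035 in Chronic mice, in place of 0.10 and 0.088 (edgeR adjusted p = 0.944 and 0.953).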

How the results depend on the processing

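Of the 6 receptor genes, 0 were called in any comparison under any alternative, each mouse left out included. The ComBat-seq and first-batch fits could not be made for Adra2a and Adrb1. For Adra2a, the log2 fold change against Water ranged over the other settings from 0.23 to 0.27 in Acute mice and from 0.27 to 0.30 in Chronic mice, with the lowest adjusted p at 0.722 (2 surrogate variables) and 0.111 (DESeq2). Leaving out 1 mouse gave 0.21 to 0.30 and 0.22 to 0.38. Over all genes, the counts called did depend on the tool: 0 in Acute and 3 in Chronic against Water by edgeR, 8 and 36 by DESeq2, and 30 and 88 by ComBat-seq and DESeq2. In the second batch alone, Chronic against Water gave 4 by edgeR, 175 by DESeq2 and 13 with 2 surrogate variables.

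The first batch alone turned signs in Chronic against Water, to 0.059 for Adra1a and -0.038 for Adra1d, where both batches gave -0.11 and 0.088. With each mouse left out, estimates against Water in Acute and Chronic mice ranged from -0.16 to -0.090 and -0.18 to -0.045 for Adra1a, 0.017 to 0.12 and 0.037 to 0.15 for Adra1b, 0.015 to 0.15 and 0.035 to 0.12 for Adra1d, 0.036 to 0.12 and 0.0055 to 0.071 for Adra2c, and 0.046 to 0.13 and 0.081 to 0.16 for Adrb1. The values for Adra1b, Adra2c and Adrb1 were highest without Water mouse 3, which had the highest level of all 3 genes among Water mice. In Chronic against Acute, the second batch gave -0.067 for Adra1a, -0.013 for Adra1b and 0.043 for Adra1d, 2 surrogate variables -0.043 for Adra1b, and limma-voom -0.0031 for Adra2a. With each mouse left out, that comparison ranged from -0.052 to 0.077 for Adra1a, -0.031 to 0.051 for Adra1b, -0.064 to 0.067 for Adra1d, -0.042 to 0.12 for Adra2a and -0.012 to 0.065 for Adrb1. With the length of the longest coding transcript, the log2 lead of Adra2c over Adrb1 was 0.033 in place of 0.23, and that of Adra1b over Adra1a was 0.46 in place of 1.46. The count of 11 relations was 11 with a prior count of 0.5.

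The replicate block rests on numbers that second-batch mice of different groups share. Of 16 same-numbered pairs, 4 had a correlation over 0.1 (range -0.346 to 0.338). Differently numbered pairs were not compared, so whether the shared numbers stand for anything common to the mice was not tested. The block called 0 of the 6 genes, gave Adra2a an unadjusted p of 0.0570 in Acute against Water, turned Adra1a in Chronic against Acute to -0.013, and called 3 genes in Chronic against Water over both batches and 0 in the second alone.

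Precision limits the rest. The 95% intervals of the alpha-1 genes against Water extend to 0.34 in size on the log2 scale, and values of Adra2a and Adrb1 in the first batch were not analysed here.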
